A study of Homo sapiens with 4 samples.

Results

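ERBB2 (HER2) and 7 genes beside it on chromosome 17 were followed in MDA-MB-361, an established HER2-positive human breast cancer cell line. The 8 genes, ERBB2, GRB7, STARD3, PGAP3, MIEN1, MED1, CDK12 and ORMDL3, lie around ERBB2 and were chosen with earlier results of these data known. They are not all the genes of the stretch, and those between them are described further on. All 22 probe sets that the platform annotation gives to 1 of these genes alone were taken, of 54613 on the Affymetrix U133 Plus 2.0 array without its controls. Of them, 19 were bright enough to be tested, of 27307 tested probe sets in all, and all 8 genes had at least 1 among the 12728 named genes tested. The study lowered DCD, the gene of the secreted peptide dermcidin, and asked how gene expression in these cells differed with less of it.

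There were 4 arrays, each of total RNA. The first 3 came from MDA-MB-361 cells that carried different short hairpin RNAs against DCD in the lentiviral pLKO-puro vector, named shDCD clone 1, 2 and 3 in the sample labels and taken by number as the study's IBC-I, IBC-II and IBC-III. The other was from MDA-MB-361 cells with the pLKO control vector, which the hairpin lines carry too. Each line gave 1 array, the control was not repeated, and each hairpin is found in 1 line only, so that hairpin, line and array cannot be told apart. The 3 comparisons share the pLKO array, so its own error enters all of them alike.

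ERBB2 is a receptor tyrosine kinase with no known ligand of its own, which signals by pairing with EGFR, ERBB3 or ERBB4. In HER2-positive breast cancer the stretch of chromosome 17 that holds the gene is present in many copies, and the neighbouring genes copied with it are often highly expressed too. The arrays measured RNA, and copy number was not measured. In the RNA of a whole culture, fewer cells of a type and less RNA per cell cannot be told apart.

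The order of the genes along the chromosome, from the centromere side, was MED1, CDK12, STARD3, PGAP3, ERBB2, MIEN1, GRB7 and ORMDL3. ERBB2 and PGAP3 start head to head on opposite strands, and the annotated ends of ERBB2 and MIEN1 overlap. The stretch between the starts of PGAP3 and ERBB2 is shown because a single short sequence lies upstream of both genes. The 250 bases before the start of STARD3 are shown because they hold the same letters, and those of MED1 because they do not. All 3 are RefSeq promoter sequence on GRCh38.p14, printed 5′ to 3′ with the motif CCGGAAG, the core letters read by ETS-family transcription factors, in capitals on whichever strand it lies.
ERBB2-PGAP3, chr17:39688058-39688093, plus strand: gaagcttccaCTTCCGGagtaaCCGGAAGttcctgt
STARD3, chr17:39636894-39637143, plus strand: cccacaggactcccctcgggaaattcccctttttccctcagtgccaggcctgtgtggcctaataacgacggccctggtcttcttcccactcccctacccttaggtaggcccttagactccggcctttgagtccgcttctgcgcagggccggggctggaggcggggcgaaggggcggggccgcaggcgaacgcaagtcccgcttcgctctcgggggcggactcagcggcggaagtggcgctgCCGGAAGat
MED1, chr17:39451264-39451513, minus strand: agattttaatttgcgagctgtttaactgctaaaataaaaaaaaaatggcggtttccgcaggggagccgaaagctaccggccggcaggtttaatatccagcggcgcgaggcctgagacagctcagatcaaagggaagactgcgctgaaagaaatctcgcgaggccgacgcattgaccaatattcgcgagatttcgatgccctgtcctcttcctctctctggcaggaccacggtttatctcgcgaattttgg
The 36 bases between PGAP3 and ERBB2 held CCGGAAG 2 times, once on each strand. Searched on both strands of windows from 250 bases before to 50 bases after each start, the motif was found for 4 of the 7 genes with a window, ERBB2, PGAP3, MIEN1 and STARD3, and in 10.3% of all 35116 promoter windows. ERBB2 and PGAP3 share their matches. The AP-2 motif GCCNNNGGC, where N is any base, reads the same on both strands in its fixed letters and was found in the window of STARD3 only among the 7, and in 23.2% of all windows. No window was at hand for GRB7. A match is a description of the letters and not a binding site.

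The arrays differed in brightness and in RNA quality, and this touches every comparison, those with shDCD clone 3 most. The deposited intensity had a median of 20.0 for shDCD clone 1, 24.7 for clone 2, 13.4 for clone 3 and 20.6 for pLKO, while the spiked controls averaged 4153 to 4728. The 3'/5' signal ratio of ACTB, which grows as RNA is degraded, was 9.67, 2.58, 42.6 and 5.29 in that order. That of GAPDH was 2.18, 1.02, 13.1 and 1.09. By both ratios clones 1 and 3 lay above pLKO and clone 2 below it. For this reason intensities were quantile normalized, and every log2 difference below is of normalized values floored at 16 unless it is said to be of deposited values. DCD itself had intensities of 7.0, 6.0, 2.7 and 2.0, all under that floor, so the arrays do not show whether the targeted gene was lowered. The study reported lower DCD RNA by RT-PCR and lower protein by immunocytochemistry and immunoblotting in its DCD shRNA lines. All 9 markers of luminal breast epithelium were measurable on the arrays, and no basal (KRT5, KRT14) or leukocyte marker was bright enough to be tested. Of the fibroblast markers 3 of 5 were tested, with a summed intensity of 261 to 350.8, and of the endothelial markers 1 of 3, PECAM1, at 19.3 to 74.9.

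ERBB2 RNA was not lower in all DCD shRNA lines. By its brightest probe set, 216836_s_at, ERBB2 had a deposited intensity of 2449.6 in shDCD clone 1, 5401 in clone 2, 369 in clone 3 and 3373 in pLKO. Clone 2 was thus the brightest array and clone 3 the dimmest, with pLKO between clones 1 and 2. After normalization ERBB2 was 1.22-fold higher than pLKO in clone 1, 1.498-fold higher in clone 2 and 3.13-fold lower in clone 3. As deposited it was 1.38-fold lower, 1.60-fold higher and 9.13-fold lower, so the direction in clone 1 turned with the scaling. The mean log2 difference was -0.26 ± 1.21 (SD, n = 3 lines), smaller than the spread between the lines (limma, unadjusted p = 0.79, adjusted p = 0.9998). Without clone 3 the mean was 0.42. Clone 3 also had the highest ACTB 3'/5' ratio, whose part in the ERBB2 value was not tested.

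The other ERBB2 probe sets were dim and differed from the first. Probe set 210930_s_at had intensities of 33.1 in clone 1, 116 in clone 2, 2.0 in clone 3 and 15.9 in pLKO. Clone 3 and pLKO lay at the floor, so ERBB2 by this probe set was at least 2.07-fold higher in clone 1 and at least 4.66-fold higher in clone 2. Probe set 234354_x_at, of a type whose probes can bind other transcripts, gave 20.6, 67.6, 20.6 and 51.1, with log2 differences of -1.17, 0.08 and -0.55. All 3 probe sets were higher in clone 2, and in clone 1 their signs differed. In clone 3 the 2 that could be compared were lower, and the sign of 210930_s_at is not known at the floor. The log2 differences spread over at least 2.22 in clone 1 and at least 2.14 in clone 2.

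**Figure D1:**
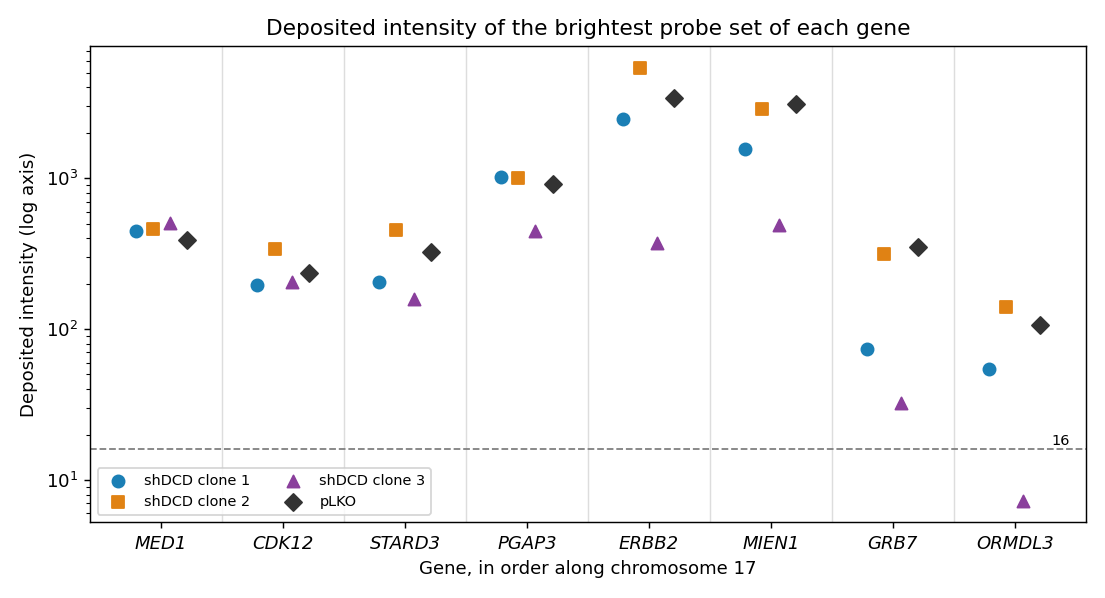
Deposited intensity (log axis) of the brightest probe set of each of the 8 genes, in order along chromosome 17, with 1 point for each array and a dashed line at the floor of 16. For ERBB2 the points run from 369 in shDCD clone 3 to 5401 in clone 2, and for GRB7 and MIEN1 the pLKO array is the brightest.

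GRB7, an adaptor protein whose SH2 domain binds phosphorylated receptors, ERBB2 among them, was lower than pLKO in every DCD shRNA line. Its intensity was 74.0 in clone 1, 315 in clone 2, 32.4 in clone 3 and 347 in pLKO. It was 3.21-fold, 1.45-fold and 5.07-fold lower after normalization, and lower in all 3 lines with median centring as well. As deposited it was 4.69-fold, 1.10-fold and 10.7-fold lower. The order of these folds was that of the ACTB 3'/5' ratio in the 3 lines, whose part was not tested. The mean log2 difference of -1.52 ± 0.91 (SD, n = 3 lines) did not pass the test (limma, unadjusted p = 0.102, adjusted p = 0.9998).

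MIEN1, a small membrane-anchored protein known for promoting cell migration, was also lower in every line by a smaller amount. Its intensity was 1553 in clone 1, 2853 in clone 2, 489 in clone 3 and 3121 in pLKO. MIEN1 was 1.20-fold, 1.41-fold and 2.12-fold lower, with a mean log2 difference of -0.61 ± 0.42 (SD, n = 3 lines; limma, unadjusted p = 0.40, adjusted p = 0.9998). GRB7 and MIEN1 were the only genes of the 8 that were lower in all 3 lines by every tested probe set, and each has 1 probe set.

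ORMDL3, an endoplasmic reticulum protein that restrains sphingolipid synthesis, differed by line. Its probe set 223259_at had intensities of 54.2 in clone 1, 139 in clone 2, 7.3 in clone 3 and 106 in pLKO. Clone 3 lay at the floor, so ORMDL3 was at least 5.30-fold lower there, while it was 1.44-fold lower in clone 1 and 1.03-fold higher in clone 2. The mean log2 difference was -0.96 ± 1.28 (SD, n = 3 lines; limma, unadjusted p = 0.35, adjusted p = 0.9998), and a floor of 64 brought it to -0.25. A further probe set, 235136_at, was under the floor on every array and was not tested.

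STARD3, which carries cholesterol at the membrane of late endosomes, differed least from pLKO. Its intensity was 205 in clone 1, 453 in clone 2, 158 in clone 3 and 323 in pLKO. Clone 2 was the brightest and clone 3 the dimmest. After normalization the log2 differences were -0.03, 0.06 and 0.35 (mean 0.13 ± 0.20, SD, n = 3 lines; limma, unadjusted p = 0.85, adjusted p = 0.9998). As deposited the mean was -0.40, and PGAP3 (-0.25) and CDK12 (0.014) differed less.

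PGAP3, an enzyme that remodels the lipid of GPI-anchored proteins, gave different signs by its probe sets. The brighter, 55616_at, had intensities of 1012 in clone 1, 1003 in clone 2, 445 in clone 3 and 909.6 in pLKO, and the dimmer, 221811_at, had 179.5, 565, 147.5 and 364. Their log2 differences were 0.90, -0.27 and 0.47 for the first and -0.41, 0.19 and 0.07 for the second. After normalization they had opposite signs in clones 1 and 2 and were both higher in clone 3. As deposited the differences were 0.15, 0.14 and -1.03 for the first and -1.02, 0.63 and -1.30 for the second, so that both were lower in clone 3.

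MED1, the Mediator subunit through which nuclear receptors reach RNA polymerase II, lay above pLKO in all 3 lines by 2 of its 4 probe sets. Probe set 203496_s_at had intensities of 204 in clone 1, 226 in clone 2, 193 in clone 3 and 131 in pLKO, the dimmest of the 4. It was 2.31-fold, 1.29-fold and 3.72-fold higher after normalization (mean log2 difference 1.16 ± 0.76, SD, n = 3 lines; limma, unadjusted p = 0.17, adjusted p = 0.9998). It was higher in all 3 lines as deposited and with median centring too. Probe set 225452_at was 1.47-fold, 1.41-fold and 2.27-fold higher after normalization, and as deposited it was 1.06-fold lower in clone 1 and 1.17-fold lower in clone 3.

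The remaining MED1 probe sets did not keep a sign. The brightest, 203497_at, had intensities of 448, 462, 506 and 388 in clones 1, 2 and 3 and pLKO, with log2 differences of 0.89, -0.16 and 1.87. Probe set 225456_at had 73.2, 203, 38.5 and 144, with log2 differences of -0.48, 0.10 and -0.81. In clone 3 the 4 MED1 probe sets therefore ran from -0.81 to 1.89 and in clone 2 from -0.16 to 0.49.

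CDK12, the kinase that with cyclin K phosphorylates the tail of RNA polymerase II, had 8 probe sets, of which 6 were tested. The brightest, 225697_at, had intensities of 197 in clone 1, 337 in clone 2, 205 in clone 3 and 236 in pLKO. It was 1.26-fold, 1.06-fold and 2.25-fold higher after normalization (mean log2 difference 0.53 ± 0.57, SD, n = 3 lines; limma, unadjusted p = 0.48, adjusted p = 0.9998). CDK12 probe sets 213557_at and 225694_at were likewise higher in all 3 lines after normalization, 225690_at was lower in all 3, and 225691_at and 219226_at were mixed. These signs turned with the scaling. As deposited, all 6 were lower than pLKO in clones 1 and 3 and higher in clone 2, with log2 differences of -0.26, 0.51 and -0.21 for 225697_at.

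In shDCD clone 3 the CDK12 probe sets disagreed most. Probe set 219226_at had intensities of 43.4 in clone 1, 195 in clone 2, 11.5 in clone 3 and 128.5 in pLKO. Its log2 difference in clone 3 was -2.64, against 1.17 for 225697_at of the same gene on the same array, a range of 3.81. In clone 2 the range over the 6 was 0.31 and in clone 1 it was 1.50. The order of the ranges was that of the ACTB 3'/5' ratio on the arrays, and its part in the result was not tested.

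**Figure D2:**
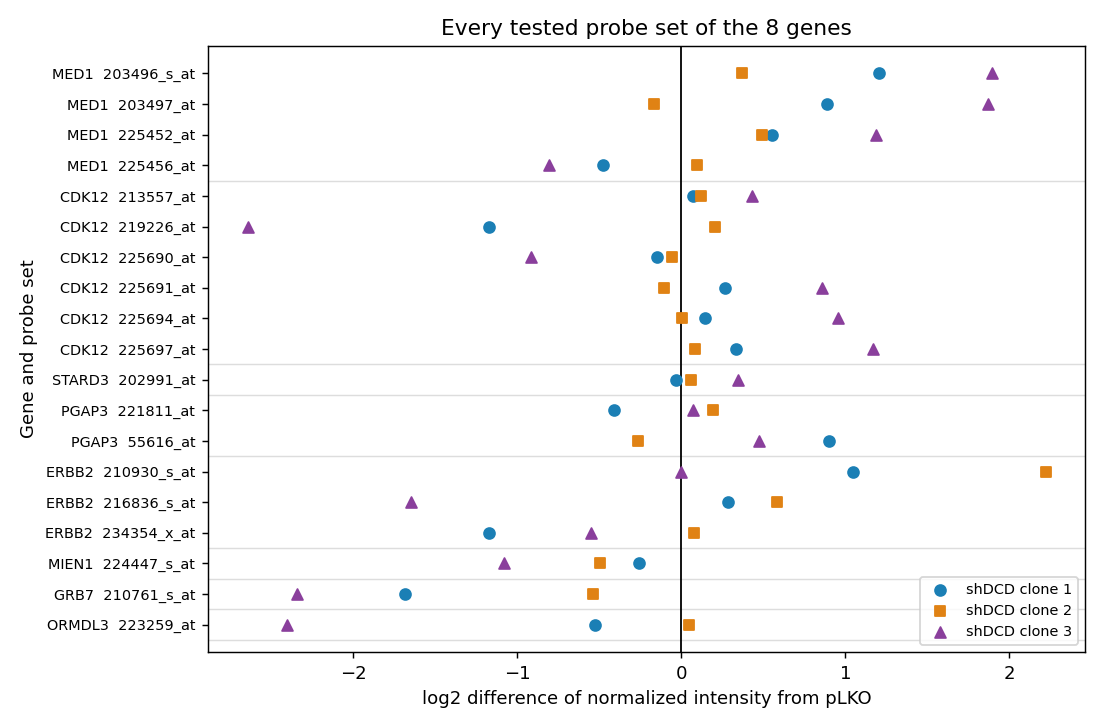
The log2 difference of normalized intensity from pLKO (horizontal axis) for each of the 19 tested probe sets of the 8 genes (vertical axis), with 1 point for each DCD shRNA line. Points of 1 gene spread most in shDCD clone 3, where the CDK12 probe sets run from -2.64 to 1.17.

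Counted over the 19 tested probe sets of the 8 genes, 3 were lower than pLKO in all 3 lines, against 20% of all tested probe sets. They were those of GRB7 and MIEN1 and 1 of CDK12. Another 5, of MED1 and CDK12, were higher in all 3, against 19.4% of all, and 11 were neither. The counts of both signs thus lay near those of all probe sets.

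None of the 19 was at least 3-fold lower or at least 3-fold higher in all 3 lines, the rule by which the study named its changed genes. Over all probe sets 49 were lower by this rule, or 0.179%, and 10 higher, or 0.0366%. A difference of at least 2-fold downward was found in clone 1 for 3 of the 19 (10.2% of all tested probe sets), in clone 2 for 0 (4.09%) and in clone 3 for 5 (21.3%). At least 2-fold upward were 2 in clone 1 (8.38%), 1 in clone 2 (3.61%) and 4 in clone 3 (19.4%). The median log2 difference of the 19 was 0.07, 0.08 and 0.07 in clones 1, 2 and 3, and that of all tested probe sets was 0.00 in each.

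The test across all probe sets made no call. With limma, 0 of 27307 probe sets (0%) had an adjusted p under 0.05, and at an unadjusted p under 0.05 there were 206 (0.754%), none of them of the 8 genes. limma took its spread from the 3 DCD shRNA arrays, since the control has 1, and moderated it toward that of all tested probe sets. For STARD3 the SD of the differences was 0.20 and the standard error in limma 0.65. Each p therefore does not measure the spread of that gene alone. A p that misses the threshold does not show that the genes were equal.

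Setting each gene against ERBB2 on the same array removes the scaling between arrays when values are taken as deposited. The measure is the gene's log2 difference from pLKO minus that of ERBB2. For GRB7 it was below 0 in all 3 lines, at -1.77 in clone 1, -0.82 in clone 2 and -0.23 in clone 3. After normalization the values for GRB7 were -1.97, -1.12 and -0.70. Of the 7 genes only GRB7 is known to have had the same sign in all lines on both scales. For ORMDL3 the measure as deposited was -0.50 in clone 1 and -0.28 in clone 2, while in clone 3, where ORMDL3 lay under the floor of 16, it was at most 0.47 and its sign is not known. After normalization it was -0.81, -0.54 and, at the floor, at most -0.76. STARD3 and MIEN1 were below ERBB2 in clones 1 and 2 and above it in clone 3.

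By their brightest probe sets, the genes on the centromere side parted from ERBB2 in shDCD clone 3, the array with the highest ACTB 3'/5' ratio. As deposited, MED1 stood 3.58 above ERBB2 on the log2 scale in that line, CDK12 2.98, and STARD3 and PGAP3 2.16 each, while MIEN1 stood 0.52 above it. As deposited in clone 3, CDK12 probe set 219226_at was at most -3.01 from pLKO, and ERBB2 was -3.19. Every other tested probe set of MED1, CDK12, STARD3 and PGAP3 lay above that ERBB2 value. By ERBB2 probe set 234354_x_at the difference was -1.31, beside -1.03 for STARD3. The part of RNA quality was not tested. In clone 2 all 7 genes lay below ERBB2 by their brightest probe sets, by -0.17 for CDK12 to -0.82 for GRB7. MED1 probe sets 203496_s_at and 225452_at lay above it there.

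**Figure D3:**
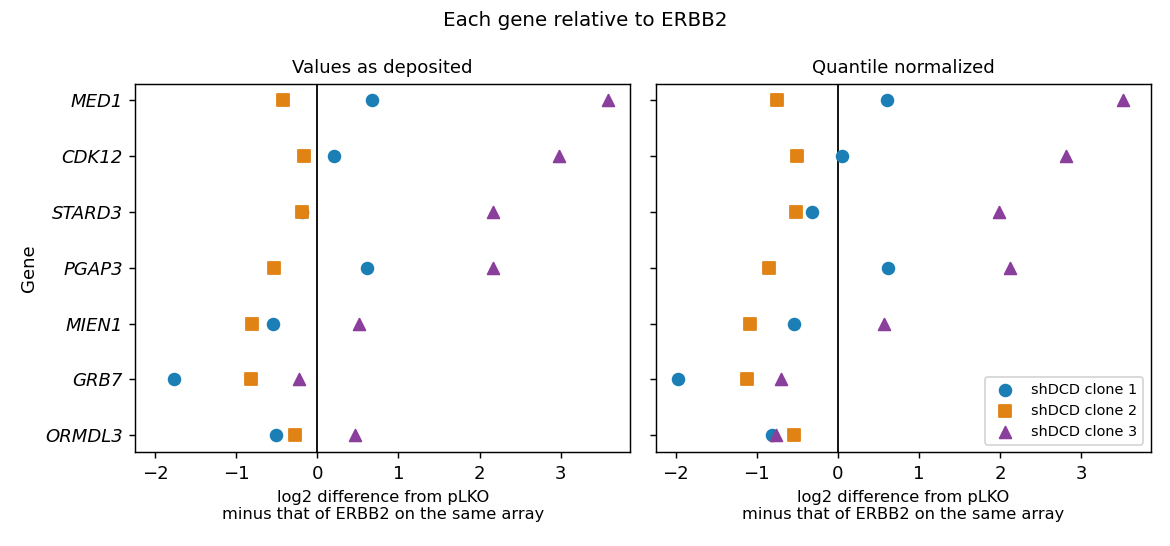
Each gene's log2 difference from pLKO minus that of ERBB2 on the same array (horizontal axis), as deposited on the left and after quantile normalization on the right, with 1 point for each DCD shRNA line. The ORMDL3 points of shDCD clone 3 are upper bounds at the floor of 16. GRB7 lies left of 0 in all 3 lines on both scales, and MED1 lies farthest right in shDCD clone 3, at 3.58 as deposited.

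By pattern over the 4 arrays the neighbours were not the genes most like ERBB2. Likeness was the root mean square distance between log2 levels centred on each gene's own mean, among 12727 other genes, and is given as a description over 4 arrays. The closest were EML3 at 0.054, CRACR2A at 0.056, DCPH1 at 0.065, NECAP2 at 0.070 and AP2M1 at 0.080. In clone 3 their log2 differences from pLKO ran from -1.58 to -1.73, beside -1.64 for ERBB2. The part of RNA quality on that array was not tested. ORMDL3 lay at the floor there, which enters its rank. ORMDL3 came at rank 563 (0.32), MIEN1 at 3004 (0.61), GRB7 at 4210 (0.71), STARD3 at 7894 (1.00), PGAP3 at 8774 (1.08), CDK12 at 10813 (1.30) and MED1 at 12212 (1.61).

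Among genes that lie between the 8 on the chromosome, PPP1R1B and PNMT stood apart from their neighbours. PPP1R1B, known as DARPP-32, an inhibitor of protein phosphatase 1, had intensities of 52.2 in clone 1, 31.9 in clone 2, 3.3 in clone 3 and 270.2 in pLKO. It was 3.71-fold lower in clone 1, 8.59-fold lower in clone 2 and at least 13.05-fold lower in clone 3, where it lay at the floor (limma, unadjusted p = 0.00787, adjusted p = 0.9998). PNMT, the enzyme that makes adrenaline from noradrenaline, had 24.7, 5.8, 1.9 and 121.8 in the same order. It was 4.03-fold lower in clone 1 and at least 6.06-fold lower in clones 2 and 3, both at the floor. PNMT passed the filter on low values only through the pLKO array, where it was bright, so no test is given for it.

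Both genes met the 3-fold rule, also as deposited and with median centring, and PPP1R1B did not pass the adjusted test at the floor of 16. With a floor of 64 all their DCD shRNA values lay at the floor, and PNMT, at least 1.51-fold lower in each line, no longer met the rule. PNMT lies beside PGAP3, and PPP1R1B beside STARD3, yet neither STARD3 nor PGAP3 was lower in all lines. Of the 7 genes between the 8, 4 were tested, 2 lower in all 3 lines and 0 higher, against 21.3% and 18.8% of all named genes. PNMT is 1 of these 2, and as it passed the filter only through pLKO, its place in the count is no support. NEUROD2 had log2 differences of 0.59, -0.04 and -0.22. TCAP had intensities of 2.7, 3.4, 80.6 and 42.3, so it was at the floor in clones 1 and 2 and 4.03-fold higher in clone 3.

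**Figure D4:**
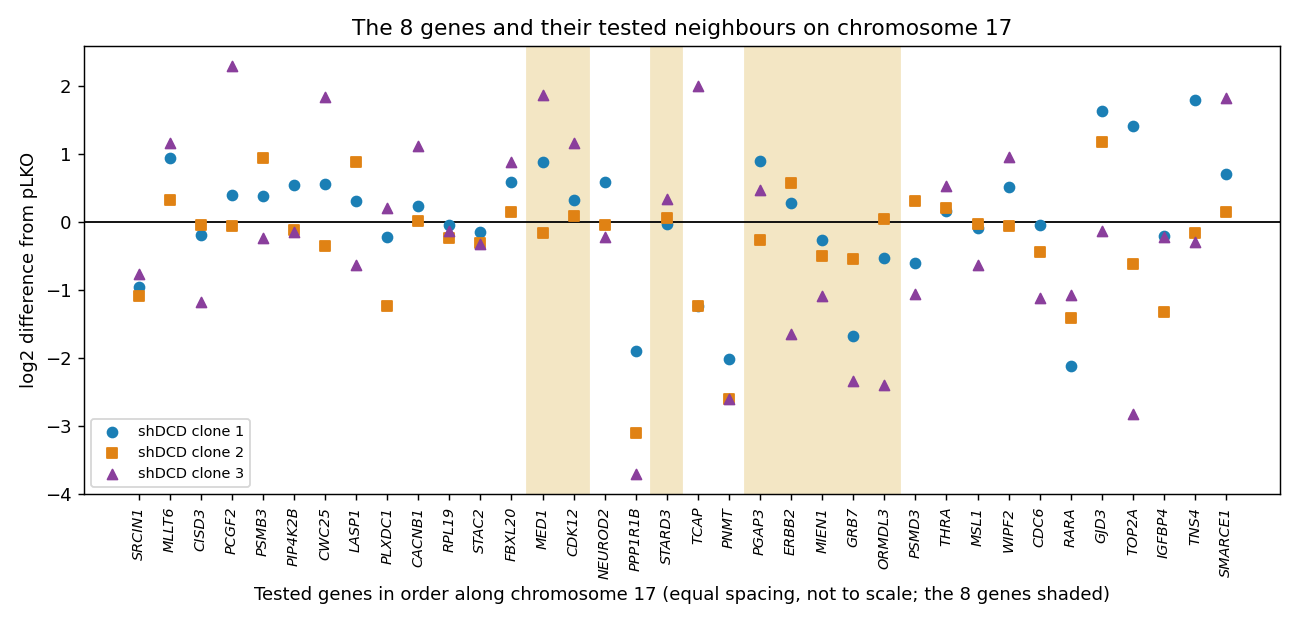
The log2 difference of normalized intensity from pLKO (vertical axis) for tested genes in their order along chromosome 17 (equal spacing, the 8 genes shaded), with 1 point for each DCD shRNA line. PPP1R1B and PNMT lie below -1.89 in all 3 lines, between shaded genes that do not.

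On the flanks the signs were mixed too. The counts of genes lower and higher in all 3 lines, here and in the lists that follow, are to be read against the same 21.3% and 18.8% of all named genes. On the MED1 side, 13 of 14 listed genes were tested, with 4 lower (21.3% of all) and 3 higher (18.8% of all) in all 3 lines. SRCIN1, a SRC inhibitor, had log2 differences of -0.96, -1.09 and -0.76, and MLLT6 had 0.95, 0.33 and 1.17 (-0.23 in clone 3 as deposited). On the ORMDL3 side 11 of 19 were tested, with 4 lower and 2 higher. RARA, the retinoic acid receptor alpha, had intensities of 60.8 in clone 1, 180.1 in clone 2, 74.1 in clone 3 and 382 in pLKO, the brightest, and was 4.35-fold, 2.67-fold and 2.11-fold lower (limma, unadjusted p = 0.0616, adjusted p = 0.9998).

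The receptors that pair with ERBB2 did not share a direction. EGFR was 2.80-fold, 2.85-fold and 5.28-fold lower in clones 1, 2 and 3 (limma, unadjusted p = 0.0337, adjusted p = 0.9998). ERBB3, the kinase-poor partner through which ERBB2 reaches PI3-kinase, had intensities of 883, 1149, 159.6 and 835. Its log2 differences of 0.81, 0.04 and -0.95 had the same signs as ERBB2 after normalization. As deposited the signs differed in clone 1, at 0.08 for ERBB3 and -0.46 for ERBB2. ERBB4 had 37.7, 34.7, 4.6 and 31.9, at the floor in clone 3. Of the 11 ligands 4 were tested. The EGFR ligands EGF (-0.64, -0.19, -0.91) and BTC (-1.31, -1.34, and at the floor in clone 3) were lower in all lines, TGFA (0.15, 0.34, 1.08) was higher, and NRG2, a ligand of ERBB3 and ERBB4, was mixed. As deposited BTC stayed lower in all lines, and NRG2 was above pLKO in all of them, by 0.27, 0.10 and 0.14. EGF was 0.09 above pLKO in clone 2, and TGFA was below it in clones 1 and 3, at -0.30 and -0.13.

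Genes that act downstream of ERBB2 or on its protein had mixed signs as well. Of 18 adaptors and effectors 14 were tested, with 3 lower and 4 higher in all 3 lines, beside 21.3% and 18.8% of all named genes. Among the lower was AKT2, a kinase downstream of PI3-kinase (-1.13, -0.66, -1.57), and among the higher was PIK3R1, a regulatory subunit of PI3-kinase (0.86, 0.33, 1.50). Of 16 genes for folding, scaffolding and turnover of the receptor 14 were tested, with 3 lower and 4 higher. The chaperone HSP90AA1, which keeps ERBB2 stable, had log2 differences of 0.59, 0.50 and 1.31 (-0.12 in clone 1 as deposited), and the ubiquitin ligase NEDD4 had -1.14, -0.40 and -2.18.

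Of 17 transcription factors known at the ERBB2 gene 15 were tested, with 4 lower and 3 higher in all 3 lines, beside 21.3% and 18.8% of all named genes. GATA3, a luminal transcription factor, had intensities of 3460 in clone 1, 3990 in clone 2, 3698 in clone 3 and 1239 in pLKO, the dimmest, and was 4.39-fold, 2.60-fold and 7.32-fold higher (limma, unadjusted p = 0.0239, adjusted p = 0.9998). ETV4, of the ETS family whose core letters are printed above, had 20.7, 20.4, 9.9 and 54.4, and was 2.36-fold lower in clone 1, 2.93-fold lower in clone 2 and at least 2.94-fold lower in clone 3. ETV4 is 1 of the 4 lower genes, but it too passed the filter only through pLKO, and no test is given. The other tested ETS factors of the list were brighter and were not lower in all lines. ELF1 was higher in all 3 (0.14, 0.48, 0.44), with intensities of 142.7, 362.1, 105.1 and 190.2. ELF3 (-0.07, 0.17, 0.34) and EHF (-0.27, -0.65, 0.22) were mixed. Of the 4 genes with the ETS letters in their window, MIEN1 was lower in all 3 lines, and ERBB2, PGAP3 and STARD3 were not. Any link with ETV4 or the other ETS factors was not tested.

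Close relatives of the 8 genes gave a last comparison, with 16 of 19 tested, 2 lower and 2 higher in all 3 lines, beside 21.3% and 18.8% of all named genes. GRB10, a relative of GRB7, was lower like it, by 3.17-fold, 2.90-fold and 1.94-fold (limma, unadjusted p = 0.0739, adjusted p = 0.9998). CDK13, the closest relative of CDK12, had log2 differences of 1.29, -0.10 (0.32 as deposited) and 2.83, and ORMDL2 had -0.97, 0.05 and -2.42, the same signs as ORMDL3. PGAP1, which acts on GPI anchors before PGAP3, was 4.52-fold, 1.76-fold and 6.79-fold higher (limma, unadjusted p = 0.0552, adjusted p = 0.9998). Of 29 other Mediator subunits 27 were tested, with 5 lower and 7 higher. MED14 had log2 differences of 0.82, 0.75 and 0.93 (-0.24 in clone 3 as deposited), and MED31 had -1.72, -0.77 and -0.85. No gene of these lists passed the adjusted test at the floor of 16. RARA, GATA3, GRB10 and PGAP1 were named for large mean differences in these same data, so their unadjusted p values are those of selected genes.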

How the data were processed

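RNA of 3 DCD shRNA lines and 1 pLKO line of MDA-MB-361 was profiled on Affymetrix U133 Plus 2.0 arrays. The deposited table gives an intensity on a linear scale for each probe set on each array. The methods name dChip, and the program and normalization behind the table are not given in the sources used here. Groups came from the sample labels, where nothing says that the arrays are repeated cultures of a condition. The spread is therefore that between lines.

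Intensities of 0 were set to 0.1. The log2 values computed from the deposited intensities were quantile normalized with the controls included, 62 control probe sets were left out, and values under 16 were set to 16. Probe sets whose mean over the arrays reached the median of such means, 27307 in all, were tested with limma (version 3.58.1, R 4.3.3), shDCD minus pLKO, with Benjamini-Hochberg adjustment and 2 residual degrees of freedom. A fold at the floor is a lower bound. The number of arrays limits the precision. Of the probe sets, 41097 were matched to 1 gene, 1801 to several and 11777 to none in the platform annotation, and 41043 of the first were updated by gene identifier to GRCh38.p14 symbols. Values of a gene are those of its brightest probe set, by the mean over arrays.

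Every probe set of the 8 genes was described, with tested ERBB receptors and ligands, tested genes between the 8, up to 4 genes of each other list with the largest mean log2 difference, and the 5 genes closest to ERBB2. From those of the other lists, examples are given, and the other tested ETS factors are named beside ETV4. The 8 genes and the lists were chosen with earlier results of these data known. Alternatives were the values as deposited, median centring, floors of 1 and 64, no filter, an upper quartile filter, each DCD shRNA array left out, the mean of all probe sets, a 2-fold rule, other limma settings and the methods' paired test. The scripts were tested on simulated data.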

Additional observations from a re-analysis of the deposited data

How the results depend on the processing

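Each gene was held to the probe set of the report. Under the alternatives, 82 of 88 mean values of the 8 genes kept their sign, as did 362 of 373 of 39 other named genes, and 0 of the 8 genes passed an adjusted p of 0.05 under any limma setting run. No paired analysis was possible because pLKO has 1 array, so no DCD shRNA array has a control of its own. The paired test that the methods name, run with the same pLKO value in each pair, is a test of the 3 differences against 0 and gave 0 of the 8 genes' probe sets and 2322 of all at an unadjusted p under 0.05. The limit of the data is 1 array per line with unequal signal over background, from 39.3% of probe sets under 16 in clone 2 to 55.1% in clone 3.

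Mean log2 differences that turned sign were, as deposited and with median centring, STARD3 (-0.40 and -0.27) and PGAP3 (-0.25 and -0.11), and with the mean of all probe sets ERBB2 (0.094), ERBB3 (0.042), ERBB4 (0.26) and NEUROD2 (-0.33). A floor of 64 turned TCAP (0.42) and MED30 (0.013). With 1 DCD shRNA array left out at a time, ERBB2 ran from -0.68 to 0.42, ERBB3 from -0.46 to 0.44, ERBB4 from -0.51 to 0.13, TCAP from -1.44 to 0.42, TOP2A from -1.76 to 0.41 and STUB1 from -1.52 to 0.20. ERBB2, ERBB3, ERBB4, TOP2A and STUB1 turned without clone 3, where each had its lowest value, and TCAP without clone 1 or 2. GRB7 stayed between -1.15 and -1.94.

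Probe sets of the 8 genes lower and higher in all lines numbered 3 and 5 of 19, beside 20.0% and 19.4% of all tested probe sets. As deposited they numbered 2 and 2 (19.5% and 9.94% of all), and with median centring 2 and 1 (24.8% and 13.9%). A floor of 64 gave 3 and 4 of 22 (6.02% and 3.95%). With an array left out, 2 lines have to share a sign instead of 3. The counts were then 3 to 7 and 7 to 8 of 18 or 19 (26.6% to 32.0% and 26.0% to 31.9%). The 3-fold rule gave 49 lower and 10 higher probe sets, 96 and 15 as deposited, 90 and 9 with median centring, 34 and 246 with a floor of 1, 22 and 3 with a floor of 64, 19 and 7 with the upper quartile filter, 95 to 274 and 34 to 142 with an array left out, and 210 and 173 at 2-fold. The share of lower calls thus moved with the floor and the scaling. limma made 0 calls (206 at an unadjusted p under 0.05), 1326 with no filter and 393 with a floor of 64, of which 1221 and 363 had all DCD shRNA arrays at the floor and so no spread. Among the calls with a floor of 64 were PPP1R1B, PNMT, BTC and SRCIN1. Each had all DCD shRNA arrays at that floor, so no p is given for them.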
